A study of Mus musculus with 4 samples.

Results

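Aminoacyl-tRNA synthetases are the enzymes that join each amino acid to its transfer RNA, and their genes were compared between macrophages with and without PP2ACα, a catalytic subunit of the phosphatase PP2A. The set was a list of 39 symbols: 20 cytosolic synthetase genes, 16 mitochondrial synthetase genes, whose symbols end in 2, and 3 genes of proteins that hold cytosolic synthetases together (Aimp1, Aimp2 and Eef1e1). A gene was taken where the platform annotation gave it as the single symbol of a feature, which held for 35 of the 39, out of 22180 genes in all. These were 17 cytosolic enzymes, all 16 mitochondrial ones and 2 scaffold genes, and each of the 35 passed the filter on dim genes. Aars, Dars, Mars and Aimp2 were not analysed here under those symbols.

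The cells were mouse bone marrow derived macrophages grown for 6 days with L-cell supernatant and then given 100 ng/ml of lipopolysaccharide (LPS), a bacterial cell wall component, for 2 hours. Control cells (PP2ACαfl/fl) carried floxed alleles of Ppp2ca, the gene of the phosphatase subunit, and no Cre recombinase. Knockout cells (PP2ACαfl/fl;lyM-Cre) carried the same floxed alleles and a myeloid Cre, read here as the line with Cre in the lysozyme gene Lyz2, so that the presence of Cre and the loss of the subunit cannot be told apart. There were 2 arrays a genotype. The labels call them biological replicates and do not name the mice, so the p-values measure only the spread between these arrays, and their number limits the precision. All 4 samples had received LPS. In such bulk samples fewer cells of a type and less RNA per cell cannot be told apart.

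In animal cells the cytosol and the mitochondrion translate separately, and mitochondrial synthetases are made from nuclear genes and imported. Several cytosolic synthetases are held in a multisynthetase complex by the scaffold proteins, and others work outside it. When amino acids run short, uncharged transfer RNA activates the kinase GCN2 (gene Eif2ak4), the translation of the transcription factor ATF4 goes up, and ATF4 induces many cytosolic synthetase genes together with amino acid transporters and synthesis enzymes. ATF4 with a C/EBP partner binds a composite element with the letters TGATGNAAN.

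That element was searched on both strands in RefSeq promoter windows of the members, each of 250 bases before and 50 after an annotated start. Windows were matched for 26 of the 35 measured genes. Of these, 4 of the 10 cytosolic enzymes held the letters, against 0 of the 14 mitochondrial enzymes and 0 of the 2 scaffold genes. Over all 32851 windows the share was 3.95%, and over the 9847 tested genes with a window it was 2.86%. The 4 genes were Gars, Iars, Tars and Yars, the synthetase genes for glycine, isoleucine, threonine and tyrosine. Every measured member with a match is shown, and 3 of the 4 were among the genes that fell. The sequences run from 120 bases before the start to 20 after it, 5′ to 3′ on the gene's strand in GRCm38.p6, with the matched letters or their reverse complement in capitals. They lie at chr6:55037881-55038020 (plus strand) for Gars, chr13:49682010-49682149 (plus) for Iars, chr15:11399639-11399778 (minus) for Tars and chr4:129189783-129189922 (plus) for Yars.
Gars: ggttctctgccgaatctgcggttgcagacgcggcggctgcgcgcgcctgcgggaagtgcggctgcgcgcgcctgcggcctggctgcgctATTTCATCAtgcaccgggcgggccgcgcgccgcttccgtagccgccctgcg
Iars: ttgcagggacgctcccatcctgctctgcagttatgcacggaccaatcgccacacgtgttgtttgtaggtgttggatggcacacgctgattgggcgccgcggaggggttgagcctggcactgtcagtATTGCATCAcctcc
Tars: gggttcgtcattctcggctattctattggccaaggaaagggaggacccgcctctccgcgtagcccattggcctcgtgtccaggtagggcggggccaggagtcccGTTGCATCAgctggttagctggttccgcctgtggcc
Yars: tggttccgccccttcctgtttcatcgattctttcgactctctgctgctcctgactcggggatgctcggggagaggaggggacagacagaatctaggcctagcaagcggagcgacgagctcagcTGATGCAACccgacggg
The match lay on the gene's own strand in Yars, from base 4 to base 12 after the start, and on the opposite strand in the other genes. In Iars it also followed the start, from base 7 to base 15, whereas in Tars it ran from base -16 to -8 and in Gars from base -31 to -23. A match is a description of these letters and not a measured binding site.

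Array medians ranged from 3.50 to 3.57 log2 units. The genotype was checked first. Ppp2ca read 8.25 and 7.59 log2 units on the control arrays and 4.36 and 3.39 on the knockout arrays, while Ppp2cb, which encodes the beta catalytic subunit, differed by -0.04 (limma adjusted p = 0.83). The Ppp2ca difference was -4.04 on its brightest feature and -2.14 with the mean of its features. Lyz2 read 12.21 and 11.92 against 6.99 and 6.75. The lower Lyz2 signal and the loss of the subunit came together and cannot be told apart. Macrophage markers were high on every array, with all 7 measured at a mean level of 8.27 or more, and 1 of them, Fcgr1, rose. Of 4 tested monocyte markers 2 rose (Ly6c2 by 0.76 and Ccr2 by 0.83) and F13a1 fell by 0.79. These were chosen for naming after their values were seen, and the part of such cells in the results below was not tested. Of 3 tested dendritic cell markers Itgax fell, with a difference of -2.54, and no erythroid marker passed the filter on dim genes. Of the 5 T and NK cell markers 2 passed the filter on dim genes, as did 1 of 3 for B cells, 3 of 7 for neutrophils and 2 of 5 for fibroblasts, and limma called 0 of these. At an unadjusted p under 0.05 the neutrophil marker Ltf was higher, at 0.34 (95% confidence interval 0.12 to 0.56), and no other.

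Among the 17 measured cytosolic synthetase genes, 6 fell and 0 rose in knockout macrophages at a limma adjusted p under 0.05. They were Yars, Gars, Farsb, Tars, Cars and Eprs. The background was 3.49% of the 12542 tested genes called lower and 3.3% called higher. All 17 had a negative difference, which 48.7% of tested genes had, and in 16 of 17 both knockout arrays lay below both control arrays, which 26.5% of tested genes showed. The median over the 17 was -0.42 log2 units, 0.746-fold, and that over all tested genes was 0.0076. Averaged over the 17 genes, the control arrays read 8.47 and 8.40 and the knockout arrays 8.07 and 8.04, while the mean over all tested genes was between 6.47 and 6.48 on every array.

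The changes were small in size. At 1.5-fold, the cutoff in the series' design text, 1 of the 35 genes was lower (Yars), against 2.65% of all tested genes, and 0 were higher, against 2.59%. The calls also rested on all 4 arrays being present. Without control replicate 1, control replicate 2, knockout replicate 1 or knockout replicate 2, limma called 0 of the 35, while 0.439%, 0.606%, 0.367% and 0.343% of all tested genes were called lower. At an unadjusted p under 0.05, 16, 16, 13 and 11 of the 35 were lower in those fits, beside 11.0%, 12.2%, 8.56% and 8.23% of all tested genes. With no filter on dim genes 0 of the 35 and 0.694% of all genes were called lower, and at an unadjusted p under 0.05 17 of the 35 and 7.19% of all genes were lower.

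**Figure D1:**
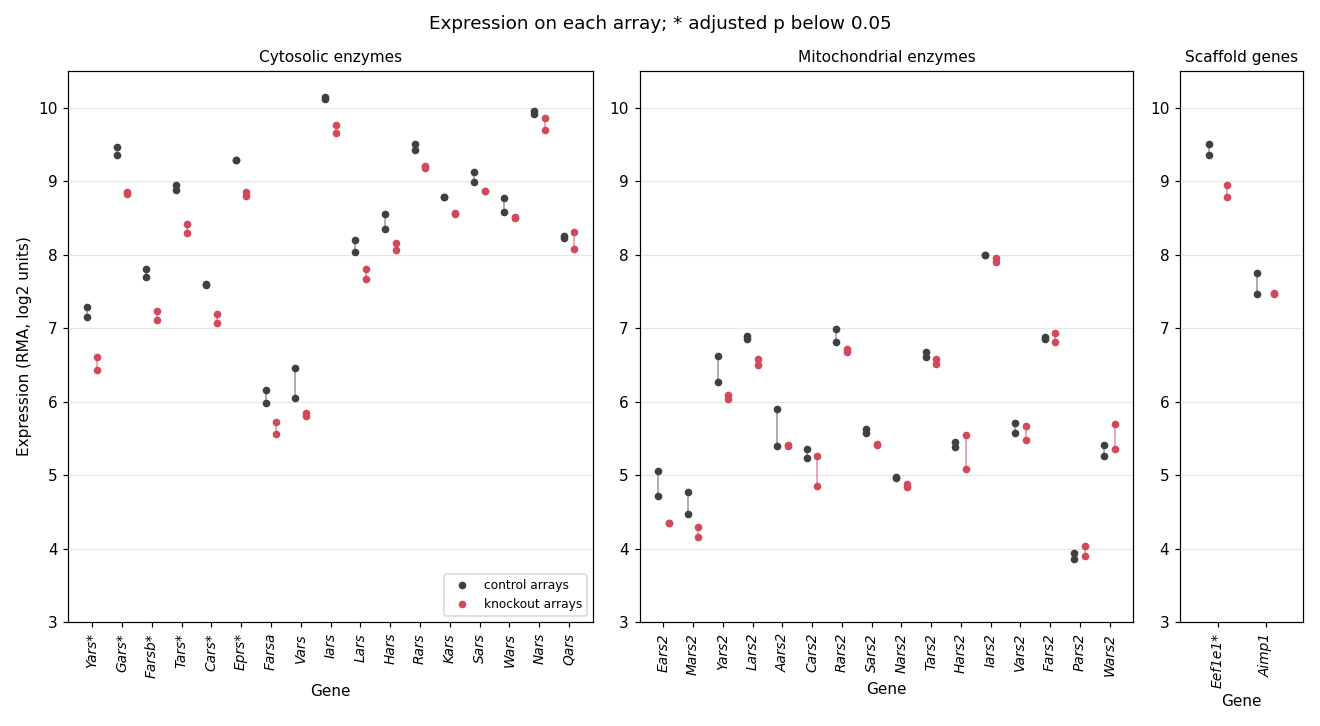
Expression of the 35 genes (RMA, log2 units, vertical axis) on the control arrays (dark) and knockout arrays (red), 2 points each joined by a line, ordered within each group by the difference between genotypes. In 16 of 17 cytosolic enzymes and 9 of 16 mitochondrial enzymes both knockout points lie below both control points, and asterisks mark the 7 genes with an adjusted p under 0.05.

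Yars, which charges tyrosine, changed the most. It read 7.29 and 7.15 on the control arrays and 6.61 and 6.43 on the knockout arrays, a difference of -0.70 (SE 0.11, adjusted p = 0.028), or 61.7% of control. The gap between the genotypes was several times the gap of 0.142 between the control arrays or of 0.176 between the knockout arrays. Gars, which charges glycine both in the cytosol and in mitochondria from a single gene, read 9.46 and 9.36 against 8.85 and 8.82 and differed by -0.58 (SE 0.09, adjusted p = 0.028). Tars, for threonine, read 8.88 and 8.95 against 8.29 and 8.42, a difference of -0.56 (SE 0.09, adjusted p = 0.034). These 3 hold the ATF4-type letters shown above, but they are not the 3 largest falls. Farsb and Eef1e1, whose windows do not hold the letters, differed by -0.573 and -0.567, against -0.560 for Tars.

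Farsb and Farsa encode the beta and alpha subunits of the cytosolic phenylalanine enzyme. Farsb read 7.80 and 7.69 in control and 7.23 and 7.11 in knockout, and fell by 0.57 (SE 0.10, adjusted p = 0.035). Farsa read 6.16 and 5.99 against 5.56 and 5.72, a difference of -0.43 that did not pass (SE 0.11, adjusted p = 0.080). For both subunits the control and knockout arrays did not overlap. Cars, for cysteine, read 7.60 and 7.58 against 7.19 and 7.07, and fell by 0.46 (SE 0.09, adjusted p = 0.046). Eprs, a fused enzyme for glutamate and proline, read 9.28 on both control arrays and 8.79 and 8.86 on the knockout arrays, and fell by 0.46 (SE 0.09, adjusted p = 0.041).

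The other 11 cytosolic enzymes did not pass, and the adjusted p-values nearest the threshold were those of Iars and Farsa. Iars, for isoleucine, read 10.15 and 10.12 against 9.66 and 9.76, a difference of -0.42 (95% confidence interval -0.65 to -0.20, adjusted p = 0.055). Vars, for valine, had a difference of the same size, -0.43, but its control arrays were 0.414 apart and its adjusted p was 0.16, and the difference was -0.22 without control replicate 1. Lars, for leucine, known also as a leucine sensor for the growth kinase mTORC1, differed by -0.38 (adjusted p = 0.098). Hars differed by -0.34 (adjusted p = 0.13), Rars, for arginine, by -0.28 (adjusted p = 0.13) and Kars, for lysine, by -0.22 (adjusted p = 0.18). In each of these genes the knockout arrays were the lower ones, and the interval of the difference lay below 0 before adjustment over all genes.

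Sars, Wars, Nars and Qars had the smallest differences among the cytosolic enzymes. Wars charges tryptophan and is known as a gene induced by interferon gamma. It read 8.77 and 8.58 in control and 8.49 and 8.51 in knockout, a difference of -0.18 (95% confidence interval -0.43 to 0.08, adjusted p = 0.34), and of -0.083 without control replicate 1 and -0.27 without control replicate 2. Sars differed by -0.19 (-0.42 to 0.04, adjusted p = 0.28) and Nars by -0.16 (-0.40 to 0.09, adjusted p = 0.38), with -0.12 for Sars without control replicate 1 and -0.076 for Nars without knockout replicate 2. Qars, for glutamine, read 8.23 and 8.25 against 8.31 and 8.07 and was the lone cytosolic enzyme whose genotypes overlapped, at -0.05 (-0.32 to 0.22, adjusted p = 0.83). Its direction turned to 0.07 without knockout replicate 2.

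Members of the multisynthetase complex and enzymes outside it both had negative medians. The counts of called genes here stand beside 3.49% of all tested genes called lower. Of the 6 measured enzymes of the complex (Eprs, Iars, Kars, Lars, Qars and Rars), 1 fell and the median difference was -0.33. Of the 11 outside it, 5 fell and the median was -0.43. By catalytic fold, 3 of 9 class I enzymes and 3 of 8 class II enzymes fell, with medians of -0.42 and -0.39. Eprs was counted as class I, although its prolyl part is of class II. No difference between these subgroups was tested. Mars1, the methionine enzyme of the complex, is the listed gene Mars under a newer symbol and stands outside the counts; it read 7.35 and 7.13 against 6.76 and 6.67, a difference of -0.53 (SE 0.11, adjusted p = 0.052).

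The scaffold genes differed from each other. Eef1e1, whose protein binds the complex and carries a domain like those of glutathione transferases, read 9.50 and 9.36 in control and 8.78 and 8.94 in knockout, and fell by 0.57 (SE 0.11, adjusted p = 0.041). Aimp1, whose released form is known as a cytokine, read 7.75 and 7.46 against 7.48 and 7.46, so that the genotypes overlapped, at -0.13 (95% confidence interval -0.44 to 0.17, adjusted p = 0.56). Without control replicate 1 the Aimp1 difference was 0.01. The second feature of Aimp1 was dim, at 4.01 and 3.93 in control against 3.82 and 3.68 in knockout.

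**Figure D2:**
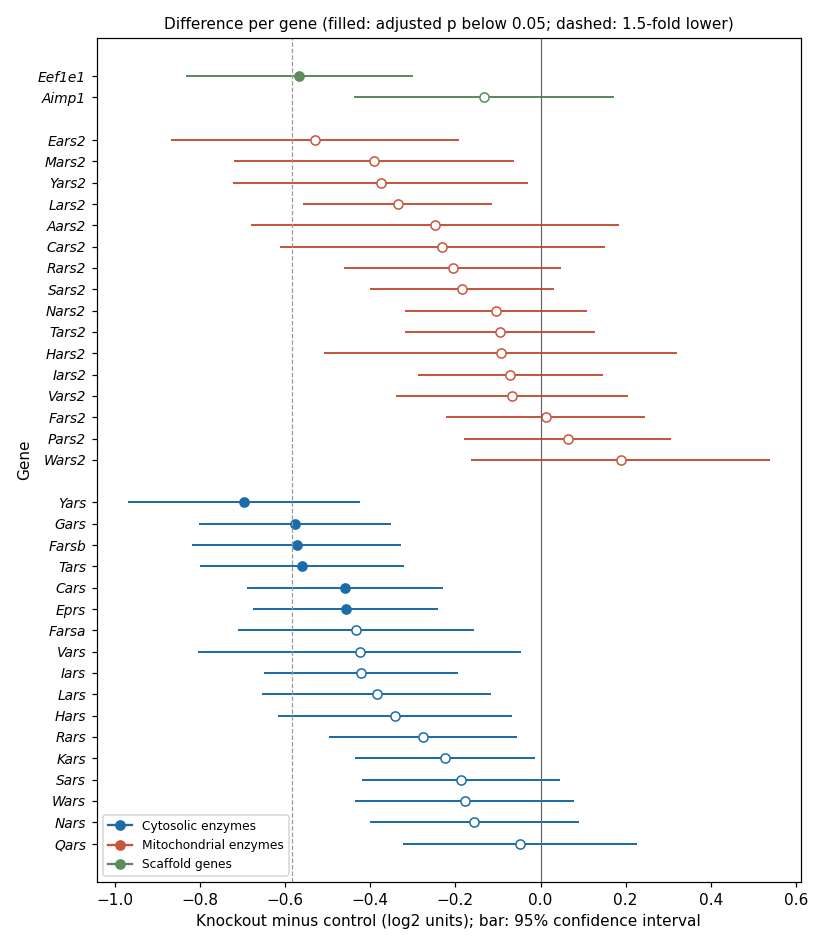
Difference between knockout and control (log2 units, horizontal axis) for each of the 35 genes, with bars for the 95% confidence interval from limma before adjustment, filled circles for an adjusted p under 0.05 and a dashed line at 1.5-fold lower. Yars at -0.70 is the lone gene past the dashed line, and all 7 filled circles are cytosolic enzymes or the scaffold gene Eef1e1.

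The mitochondrial synthetases had smaller differences and none was called. Of 16, limma called 0 in either direction, where 3.49% of all tested genes were called lower and 3.3% higher. A count of 0 of 16 is near those shares. At an unadjusted p under 0.05, 4 were lower and 0 higher, where 12.1% of all tested genes were lower and 12.6% higher. Under the alternatives 0 were called except with the stricter filter, where Lars2 passed, and 0 passed at 1.5-fold. Differences were negative in 13 and positive in 3, and the knockout arrays lay below both control arrays in 9 and above both in 0, where 26.5% and 28.8% of all tested genes did so. The median was -0.14 log2 units, or 0.905-fold. Averaged over the 16 genes, the control arrays read 5.81 and 5.82 and the knockout arrays 5.66 and 5.63.

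Ears2, which charges glutamate, had the largest difference. It read 5.06 and 4.71 in control and 4.36 and 4.35 in knockout, at -0.53 (95% confidence interval -0.87 to -0.20, adjusted p = 0.080). Lars2, for leucine, read 6.85 and 6.90 against 6.58 and 6.50, at -0.34 (SE 0.09, adjusted p = 0.087), and fell by that amount with an adjusted p of 0.029 under the stricter filter (mean at or above 5.74), where 9.98% of tested genes were called lower. Mars2, for methionine, differed by -0.39 (adjusted p = 0.14) and Yars2, for tyrosine, by -0.38 (adjusted p = 0.17). Without control replicate 2 the Mars2 difference was -0.24, and without control replicate 1 the Yars2 difference was -0.20. In these 4 genes the arrays of the genotypes did not overlap, and they are the 4 with an unadjusted p under 0.05.

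Among the others, Aars2 read 5.40 and 5.90 in control and 5.42 and 5.40 in knockout, so that its difference of -0.25 (adjusted p = 0.43) came from a single control array, and it was 0.00 without control replicate 2. Cars2 differed by -0.23 (adjusted p = 0.40), with -0.030 without knockout replicate 2 and -0.43 without knockout replicate 1. Rars2 differed by -0.21 (adjusted p = 0.27), with -0.12 without control replicate 2, and Sars2 by -0.18 (adjusted p = 0.25). Nars2, Tars2, Hars2, Iars2 and Vars2 lay between -0.10 and -0.07, and Hars2 was at 0.140 without knockout replicate 2 and -0.327 without knockout replicate 1. Nars2 had a second, dimmer feature that ran the other way, at 3.10 and 3.07 in control against 3.46 and 3.28 in knockout, and the mean of its features differed by 0.09. The 3 positive differences were those of Wars2, at 0.19 (95% confidence interval -0.16 to 0.54), which was 0.017 without knockout replicate 2 and 0.360 without knockout replicate 1, Pars2 at 0.06 and Fars2 at 0.01 (-0.030 with the arrays centred on their medians), none of which passed.

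The features of the cytosolic and mitochondrial genes also differed in signal, and dim features on such arrays understate differences. All 17 cytosolic enzymes had a mean at or above 5.74 log2 units, the 75th percentile of all features, whereas 6 of the 16 mitochondrial ones did. Above that level 4.34% of tested genes were called lower, 6 of the 17 cytosolic and 0 of the 6 mitochondrial enzymes were, and the median of those 6 was -0.15. Below it 2.26% of tested genes were called lower, and the median of the other 10 mitochondrial enzymes was -0.14. The split does not match the levels of the groups. Above it the cytosolic enzymes averaged 8.47 and 8.40 on the control arrays and the 6 mitochondrial ones 6.97 and 6.94. The part of signal level in the smaller mitochondrial differences was not tested.

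Set side by side by amino acid, the cytosolic enzyme had the more negative difference in 14 of 15 pairings, which cover 14 amino acids and use Eprs and Fars2 more than once. The widest pairing was that for phenylalanine, with Farsb at -0.57 and Fars2 at 0.01, followed by proline, with Eprs at -0.46 and Pars2 at 0.06, and threonine, with Tars at -0.56 and Tars2 at -0.09. Pars2 was dim, at 3.86 and 3.94 in control against 3.90 and 4.03 in knockout, near the filter of 3.53. For tyrosine both members were negative, at -0.70 and -0.38. For leucine (-0.38 and -0.34), arginine (-0.28 and -0.21), asparagine (-0.16 and -0.10) and serine (-0.19 and -0.18) the paired differences lay within 0.07 of each other. Glutamate was the exception, with Eprs at -0.46 and Ears2 at -0.53. The ratio of the cytosolic to the mitochondrial gene, taken array by array, was lower on both knockout arrays than on both control arrays in 9 of the 15 pairings and overlapped in the other 6, those for glutamate, histidine, leucine, asparagine, arginine and serine. No share of such ratios over other gene pairs was computed. For histidine the paired differences were -0.34 and -0.09. The difference between the compartments was not tested: an exact two-sided permutation test on 4 arrays cannot give a p below 0.333, and genes are not replicates.

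**Figure D3:**
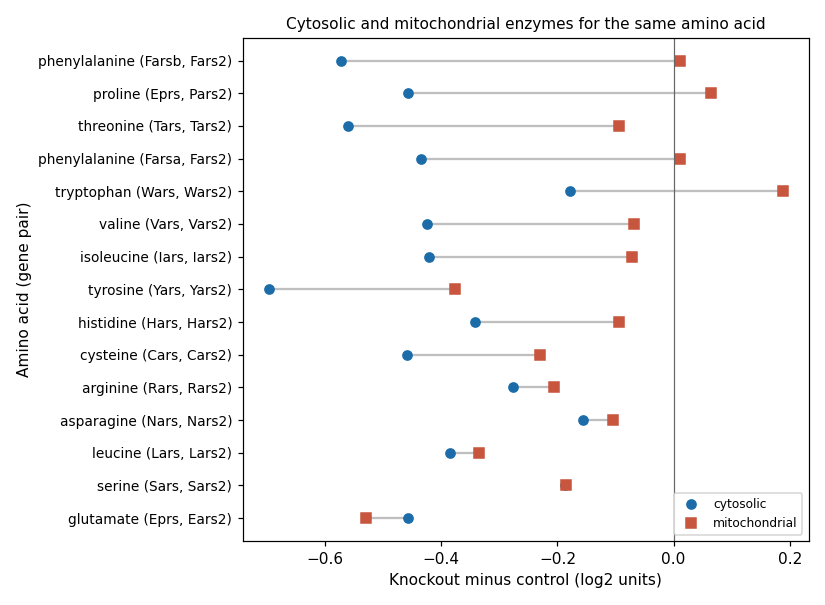
Difference between knockout and control (log2 units, horizontal axis) of the cytosolic gene (circle) and the mitochondrial gene (square) for the same amino acid, with a line joining each pairing. The circle lies to the left in 14 of 15 pairings, and the pairing for serine overlaps at -0.19 and -0.18.

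Other genes of transfer RNA biology were compared from lists, beside the background of 3.49% called lower and 3.3% called higher. Of 38 tested genes of transfer RNA processing, modification and export, 2 fell and 0 rose, with a median of -0.12. They were Trmt61a, a subunit of the enzyme that methylates adenosine in transfer RNA, which read 5.59 and 5.64 in control and 5.16 and 4.94 in knockout, at -0.57 (adjusted p = 0.042), and the pseudouridine synthase Pus7, at -0.54 (adjusted p = 0.044). Xpot, the nuclear exporter of transfer RNA, differed by -0.19 (adjusted p = 0.23). Of 6 synthetase relatives and editing proteins, Sepsecs, which makes selenocysteine on its transfer RNA, fell by 0.46 (adjusted p = 0.039). The calls of Trmt61a, Pus7 and Sepsecs were lost with no filter (adjusted p of 0.093, 0.100 and 0.098), with the replicate number as a block (0.087, 0.092 and 0.090) and with any array left out, where the adjusted p-values ran from 0.108 to 0.222. Of 15 mitochondrial amidation and translation genes limma called 0, with 3 lower and 1 higher at an unadjusted p under 0.05 and a median of -0.08, and of 6 cytosolic elongation factor genes 0, with 1 lower and a median of -0.16.

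Genes of the amino acid response changed in both directions, and more fell than rose. Of 32 tested, 11 fell and 3 rose, beside 3.49% of all tested genes called lower and 3.3% called higher. The median over the 32 was -0.25. The largest falls among called genes were in Slc7a11, the cystine transporter, at -1.60, Slc7a5, the transporter of large neutral amino acids, at -1.25, Psat1 of serine synthesis at -1.17 and Mthfd2 of mitochondrial folate metabolism at -0.99 (limma adjusted p between 0.0031 and 0.0099). With the mean of its features Slc7a11 differed by -1.11. Slc7a5 read 7.68 and 7.71 in control and 6.48 and 6.42 in knockout, with no overlap and little spread within either genotype. Asns, asparagine synthetase, which makes the amino acid and joins no transfer RNA, read 7.86 and 8.04 against 7.07 and 6.90, at -0.97 (adjusted p = 0.013). The risers were Eif2ak2 at 0.73, a kinase known as interferon-induced, Vldlr at 0.51 and Ddit3 at 0.49. Eif2ak2 and Vldlr were chosen for naming after their values were seen. Vldlr was dim, at 3.54 and 3.38 in control against 3.94 and 4.01 in knockout. Its control mean of 3.46 lay under the filter of 3.53, so it was tested only through its knockout values. Phgdh, also named after its value was seen, was among the genes that fell. Its knockout mean of 3.51 lay under the filter, so it was tested only through its control values. Ddit3 lost its call with median centring (adjusted p = 0.058), with no filter (0.100), with the replicate number as a block (0.088) and with any array left out (0.094 to 0.204), and Asns with any array left out (0.053 to 0.088). Psat1 lost it without control replicate 1, control replicate 2 or knockout replicate 1 (0.051 to 0.060) and Mthfd2 without either knockout replicate (0.060 and 0.062).

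The transcript of Atf4 itself read 8.83 and 8.75 in control and 8.41 and 8.53 in knockout, at -0.32 (95% confidence interval -0.56 to -0.08, adjusted p = 0.11). Eif2ak4, the gene of GCN2, which was added after its value was seen, differed by -0.33 (adjusted p = 0.080). ATF4 is controlled mainly through translation, and protein was not measured. Among the 26 synthetase and scaffold genes with a promoter window, 6 fell, of which Gars, Tars and Yars hold the letters TGATGNAAN and Farsb, Eprs and Eef1e1 do not. Over all tested genes with a window, 4.96% of the 282 that hold the letters were called lower and 3.46% of the 9565 that do not. These shares include the members, so that Gars, Tars and Yars are among the 14 called genes behind the 4.96%.

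**Figure D4:**
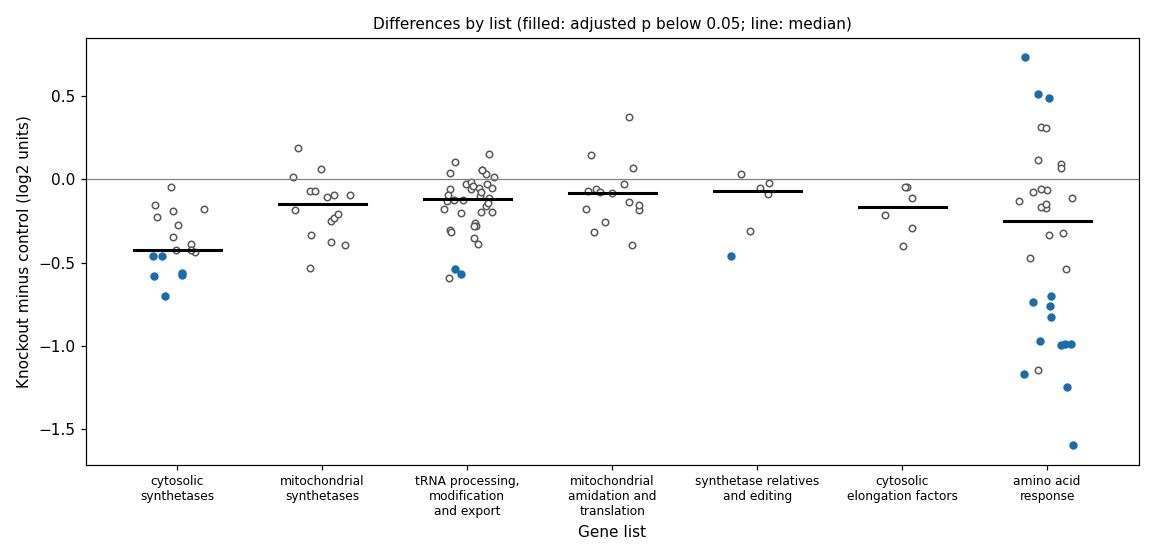
Differences between knockout and control (log2 units, vertical axis) for each tested gene of the synthetase groups and the other lists, with filled points for an adjusted p under 0.05 and a bar at the median. The bar lies at -0.42 for the cytosolic enzymes, -0.14 for the mitochondrial ones and -0.25 for the amino acid response, whose genes span -1.60 to 0.73.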

How the data were processed

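The members, the lists and the tests were chosen with earlier results of these data known. The authors computed the deposited log2 values by robust multi-array averaging (series' design text), with background adjustment and normalization between arrays, which removes a change of total RNA per cell. RMA and oligo are named, with no version, in the submitters' processing notes, and the genome build is not given in the sources used here.

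Each gene was named from features with a single symbol in the platform's annotation (23521 of 41345 features), and the brightest such feature, by its mean across arrays, stood for the gene. Of 22180 genes, the 12542 whose mean reached the median of all features, 3.53 log2 units, were tested two-sided (limma 3.58.1, R 4.3.3; lmFit, then eBayes without a block or trend), and p-values were adjusted over all of them by Benjamini-Hochberg. The scripts were tested on simulated data, where limma recovered 12.0% of 1.5-fold, 78.4% of 2-fold and 95.7% of 3-fold changes. Such recovery depends on how many genes change, so it is not a rate for these data. A gene that was not called here may still differ by a small amount. The naming rule took every synthetase member, Ppp2ca, Ppp2cb and Lyz2, up to 4 called genes with the largest difference from each other list, and Atf4, Asns, Xpot and Ddit3 in any case. Alternatives changed the filter, the scaling, the choice of feature, the variance model, the block, the fold cutoff and the arrays used. Promoter windows came from RefSeq for GRCm38.p6 and were matched by symbol.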

Additional observations from a re-analysis of the deposited data

How the results depend on the processing

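Counts of called genes moved with the processing. The fit as reported called 852 of 12542 tested genes. With no filter limma called 333 of 22180 genes and 0 of the 35 members, cytosolic and scaffold genes included. The stricter filter called 1487 of 7448 tested genes, with 9.98% of the 7448 called lower, and 11 members of 25 tested, of which 1 was a mitochondrial enzyme. A variance trend called 1584 of 12542 genes and 10 members of 35. The replicate numbers did not pair the arrays (correlation of deviations -0.04); with the replicate block 312 genes, 1 member, 1 cytosolic enzyme (Yars) and 0 scaffold genes were called. At 1.5-fold 1 member, 1 cytosolic enzyme and 0 scaffold genes passed. The mitochondrial median was -0.17 with quantile normalization and -0.19 with median centring, where the cytosolic one was -0.46. Leaving out each array in turn gave 96 to 174 called genes, 0 members, cytosolic enzymes and scaffold genes, cytosolic medians of -0.45 to -0.35 and mitochondrial medians of -0.185 to -0.095. Among the named genes, directions turned only in ones that were not called. With an array left out, Qars ranged from -0.164 to 0.0677, Fars2 from -0.0513 to 0.0747, Hars2 from -0.327 to 0.140, Pars2 from -0.0033 to 0.131, Vars2 from -0.159 to 0.0239, Aars2 from -0.497 to 0.0018 and Aimp1 from -0.277 to 0.0129. Fars2 was at -0.0300 with centring and Nars2 at 0.0908 with the mean of features. Counting Mars1 as Mars, an alternative chosen after seeing the data, left 7 members called. The causes were not tested.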
